A study of Saccharomyces cerevisiae with 36 samples.

Results

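The genes of the peroxisome and of fatty acid oxidation were followed in budding yeast grown on fructose, with and without palatinose. They comprise every gene whose first name is *PEX* with a number, 27 genes for building peroxisomes and importing their proteins, and 15 listed genes, 13 for enzymes and transporters and 2 for transcription factors. These 42 genes are part of the 5697 genes counted in each library. The wild-type was FY4, a prototrophic laboratory strain, and the second strain, *gal80Δ*, was made in it by deleting *GAL80*, whose product holds the activator Gal4 inactive when there is no galactose. Whether *gal80Δ* was a single clone is not given in the sources used here. Cells of both strains were first grown on pyruvate, then washed and moved to minimal Delft medium with either 0.1% fructose alone (fructose) or 0.1% fructose together with 0.9% palatinose (fructose-palatinose), a disaccharide of glucose and fructose. RNA was taken at mid-log and then after a further 10 (+10h) and 16 hours (+16h), with 3 biological replicates, A, B and C, in each of the 12 groups. All groups therefore had fructose, and the fructose-palatinose groups differed from the others only by the added palatinose.

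In yeast, the β-oxidation of fatty acids takes place only in peroxisomes. Long-chain acyl-CoAs enter through an ABC transporter, are shortened by an oxidase, a bifunctional hydratase-dehydrogenase and a thiolase, and the hydrogen peroxide made by the oxidase is removed by catalase. Peroxins, the products of the *PEX* genes, carry these enzymes into the organelle and set its size and number. The factors Oaf1 and Pip2 bind the oleate response element, a pair of inverted CGG triplets upstream of many of these genes, and the genes are known to be repressed by glucose and induced by oleate. No fatty acid is named among the additions to these media.

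The oleate response element is known upstream of many of these genes, so this search describes their sequence and is no independent test. It was found upstream of most enzyme genes and few *PEX* genes. It was searched as CGGNNNTNA, 8 to 12 further bases and CCG on both strands of the 500 bp upstream of each coding sequence, in the R64 reference sequence of RefSeq. A match stood upstream of 12 of the 13 enzyme and transporter genes (92.3%), 6 of the 27 *PEX* genes (22.2%) and 1 of the 2 regulator genes, against 127 of 6008 windows (2.11%) of all nuclear genes. The Gal4 site, CGG and CCG with 11 bases between them, was found upstream of none of the 42 genes and of 179 of the 6008 windows (2.98%). The matches below are those of 7 enzyme and transporter genes with large changes, of the regulator gene *PIP2* and of *DCI1* and *PEX11*, which held a match and were not called between mid-log and +10h. Each is written 5′ to 3′ on the strand of its gene, with the outer triplets in capitals, and may fit the searched letters on that strand, on the opposite one or on both.
POX1, distal: CGGtattagttgattaaactCCG
POX1, proximal: CGGtcattagcggctaatagCCG
FOX2, distal: CGGaagcctagttttaagtCCG
FOX2, proximal: CGGggaaatttgttaacgCCG
POT1: CGGggataatagtattaacaCCG
CTA1: CGGctttaacaaatataaactCCG
CRC1: CGGgttactgctcctaatatCCG
SPS19: CGGcgttaagtatatcaaactCCG
PXA2: CGGcgttaattacaactatcaCCG
DCI1: CGGctgtaagcgcgctaaactCCG
PEX11: CGGcatttatctcggagaacCCG
PIP2: CGGaactaaatataatctCCG

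The 2 matches of *POX1* were at chrVII:107846-107868 and chrVII:107883-107905, upstream of a gene on the + strand. Those of *FOX2* were at chrXI:457337-457358 and chrXI:457305-457325, upstream of a gene on the - strand. On that strand too were the genes of the matches at chrIX:41610-41632 (*POT1*), chrIV:969866-969889 (*CTA1*), chrXV:514584-514606 (*CRC1*), chrXI:89035-89058 (*PXA2*), chrXV:675286-675309 (*DCI1*), chrXV:48756-48778 (*PEX11*) and chrXV:1023348-1023368 (*PIP2*). The match of *SPS19*, a gene on the + strand, was at chrXIV:259412-259435. All of these matches lay outside annotated coding sequences, between 113 (*PEX11*) and 306 bases (*CRC1*) from the start of the coding sequence. *PXA1* was the enzyme or transporter gene without a match. A match is a description of the letters, and no binding was measured.

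Libraries held between 6020770 and 11785148 counts (median 8282840.5), where 3 counts correspond to between 0.255 and 0.498 CPM (counts scaled by the library total). Reads came from the 3′ ends of transcripts, so that CPM does not grow with the length of a gene and can be set side by side between genes. *GAL80* ranged from 45.9 to 117 CPM over the 18 libraries of the wild-type and from 8.10 to 17.2 CPM over the 18 of *gal80Δ*. *GAL1*, which Gal4 activates, ranged from 19.3 to 73.3 CPM and from 6611 to 19461 CPM in these. Fold changes were fitted with edgeR over all 36 libraries, and a gene was called where its log2 fold change exceeded 0.5 in size at a Benjamini-Hochberg adjusted p-value below 0.05. Among the 5479 genes tested were all 42 members. In the wild-type in fructose at +10h, library B stood apart. Its chi-square per degree of freedom, over the genes above a count minimum in the pair, was 140 against library A and 187 against library C. Libraries A and C differed by 32.1, and the 36 replicate pairs of all groups ranged from 9.87 to 187. Counts of calls that use this library are therefore also given without it, an alternative chosen after seeing the data. At mid-log in the same strain and medium, A and C differed by 141, and B differed from them by 55.9 and 49.4. No fit left out a single library of that mid-log group. Where a level is lower in a culture, less RNA per cell cannot be told apart from fewer cells that express the gene.

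The first comparison asked how these genes changed as the cultures left exponential growth. From mid-log to +10h the enzyme and transporter genes rose together, in both strains and both media, and the *PEX* genes rose less. In wild-type cells in fructose, 12 of the 13 enzyme and transporter genes rose and none fell, with a median log2 fold change of 2.31, and 17 of the 27 *PEX* genes rose and 1 fell, with a median of 0.65. Of all genes tested, 29.1% rose and 26.0% fell in this comparison, with a median log2 fold change of 0.02. Without library B at +10h, 12 enzyme and 16 *PEX* genes rose, with medians of 2.19 and 0.62. *PEX6* (0.39) was the one of the 42 genes whose call was lost. Of 5487 genes tested without B, 1545 rose and 1443 fell, against 1596 and 1427 of 5479 with it. In fructose-palatinose, 12 enzyme and 11 *PEX* genes rose in the wild-type, with medians of 1.83 and 0.39, where 24.5% of all genes rose and 21.2% fell. In *gal80Δ*, 12 enzyme and 18 *PEX* genes rose in fructose, where 28.9% of all genes rose and 23.7% fell. In fructose-palatinose these were 12 and 16, where 27.4% of all genes rose and 23.2% fell. 1 *PEX* gene fell in each medium in *gal80Δ*. The share of enzyme genes that rose thus stood far above that of all genes in each culture, and the share of *PEX* genes stood less far above it. The split over all genes depends on the scaling. When scaled by library size alone, not by TMM, 42% of all genes rose and 15.3% fell in the wild-type in fructose and 35.2% and 11.9% in fructose-palatinose, and in *gal80Δ* 40.0% and 15.3% in fructose and 39.8% and 13.6% in fructose-palatinose.

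*CRC1*, which encodes the carrier of acylcarnitines across the inner mitochondrial membrane, had the largest rise of all 42 genes in each of the 4 comparisons. In wild-type cells in fructose it was at 10.5, 7.66 and 7.85 CPM at mid-log and at 1576, 1117 and 1245 CPM at +10h. The 3 libraries at +10h were all above the 3 at mid-log by a wide margin, a log2 fold change of 6.89 ± 0.24 (SE, adjusted p = 2.3e-20). In fructose-palatinose the wild-type stood at 565, 493 and 474 CPM at +10h, and the log2 fold change was 5.19 ± 0.22 (adjusted p = 9.0e-18). The *gal80Δ* libraries at +10h were higher than those of the wild-type, at 2526, 3657 and 2659 CPM in fructose and at 2790, 2871 and 2239 CPM in fructose-palatinose, with log2 fold changes of 7.57 ± 0.24 and 7.51 ± 0.24 over mid-log.

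The core enzymes of β-oxidation rose in all 4 comparisons. *POT1*, the thiolase of the last step, was at 3.05, 2.47 and 4.23 CPM at mid-log and at 124, 113 and 77.2 CPM at +10h in wild-type cells in fructose. These values do not overlap, and the log2 fold change was 4.62 ± 0.35 (adjusted p = 1.5e-12), with 4.02 to 4.49 in the other 3 cultures. *POX1*, the acyl-CoA oxidase of the first step, was at 2.5, 2.1 and 4.34 CPM and then at 21.5, 31.9 and 19.1 CPM, a log2 fold change of 2.62 ± 0.30. *FOX2*, the bifunctional enzyme between them, was at 11.2, 11.7 and 8.78 CPM and then at 60.3, 38.2 and 52.0 CPM, a log2 fold change of 1.90 ± 0.21. The 3 enzymes of 1 pathway thus rose by different amounts, *POT1* most in every culture. *CTA1*, the peroxisomal catalase, was at 10.8, 7.54 and 10.5 CPM and then at 72.2, 67.6 and 81.2 CPM, a log2 fold change of 2.58 ± 0.25. Its rise ranged from 1.83 in wild-type cells in fructose-palatinose to 3.43 in *gal80Δ* cells in fructose.

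The genes for bringing fatty acids into the peroxisome rose as well, the transporter more than the rest. *PXA1* and *PXA2* encode the subunits of the ABC transporter of long-chain acyl-CoAs. In wild-type cells in fructose, *PXA1* was at 9.57, 10.8 and 8.78 CPM at mid-log and at 90.8, 62.0 and 78.5 CPM at +10h. *PXA2* went from 4.85, 6.06 and 4.96 CPM to 41.5, 30.8 and 30.8 CPM. Neither gene overlapped between the time points, and the log2 fold changes were 2.64 ± 0.18 and 2.34 ± 0.21. *ANT1* encodes the ATP carrier of the peroxisomal membrane, and was at 28.4, 25.2 and 21.7 CPM and then at 62.4, 71.5 and 57.9 CPM. *FAA2*, the medium-chain acyl-CoA synthetase that uses this ATP, was at 9.29, 6.92 and 5.37 CPM and then at 15.8, 13.4 and 20.4 CPM. In wild-type cells in fructose both rose without overlap. Over the 4 comparisons the log2 fold changes were 0.77 to 0.99 for *ANT1* and 0.60 to 0.86 for *FAA2*. Each of the *ANT1* calls held under every alternative fit, and each of the *FAA2* calls was lost under at least 1. *PXA1*, the gene with no oleate response element in its window, rose in all 4.

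Genes for handling double bonds differed among themselves. *SPS19*, the 2,4-dienoyl-CoA reductase, was at 10.4, 6.80 and 9.40 CPM at mid-log and at 56.5, 66.8 and 46.5 CPM at +10h in wild-type cells in fructose, a log2 fold change of 2.31 ± 0.24. *ECI1*, the enoyl-CoA isomerase, was at 17.2, 17.1 and 31.8 CPM and then at 55.3, 84.2 and 58.7 CPM, a log2 fold change of 1.21 ± 0.21. *IDP3*, the peroxisomal isocitrate dehydrogenase that supplies NADPH to the reductase, was at 5.13, 5.19 and 7.74 CPM and then at 19.4, 18.9 and 20.8 CPM, a log2 fold change of 1.34 ± 0.26. All 3 were higher in each library at +10h than in any at mid-log. *DCI1*, a relative of *ECI1*, was at 26.6, 19.4 and 21 CPM at mid-log and at 38.9, 26.6 and 34.3 CPM at +10h. The library of replicate B at +10h was level with that of replicate A at mid-log, the log2 fold changes lay between 0.12 and 0.43, and it was the 1 enzyme gene not called in any of the 4. Under library size alone, without TMM scaling, it was called in 3 of them, at 0.58, 0.70 and 0.72.

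**Figure D1:**
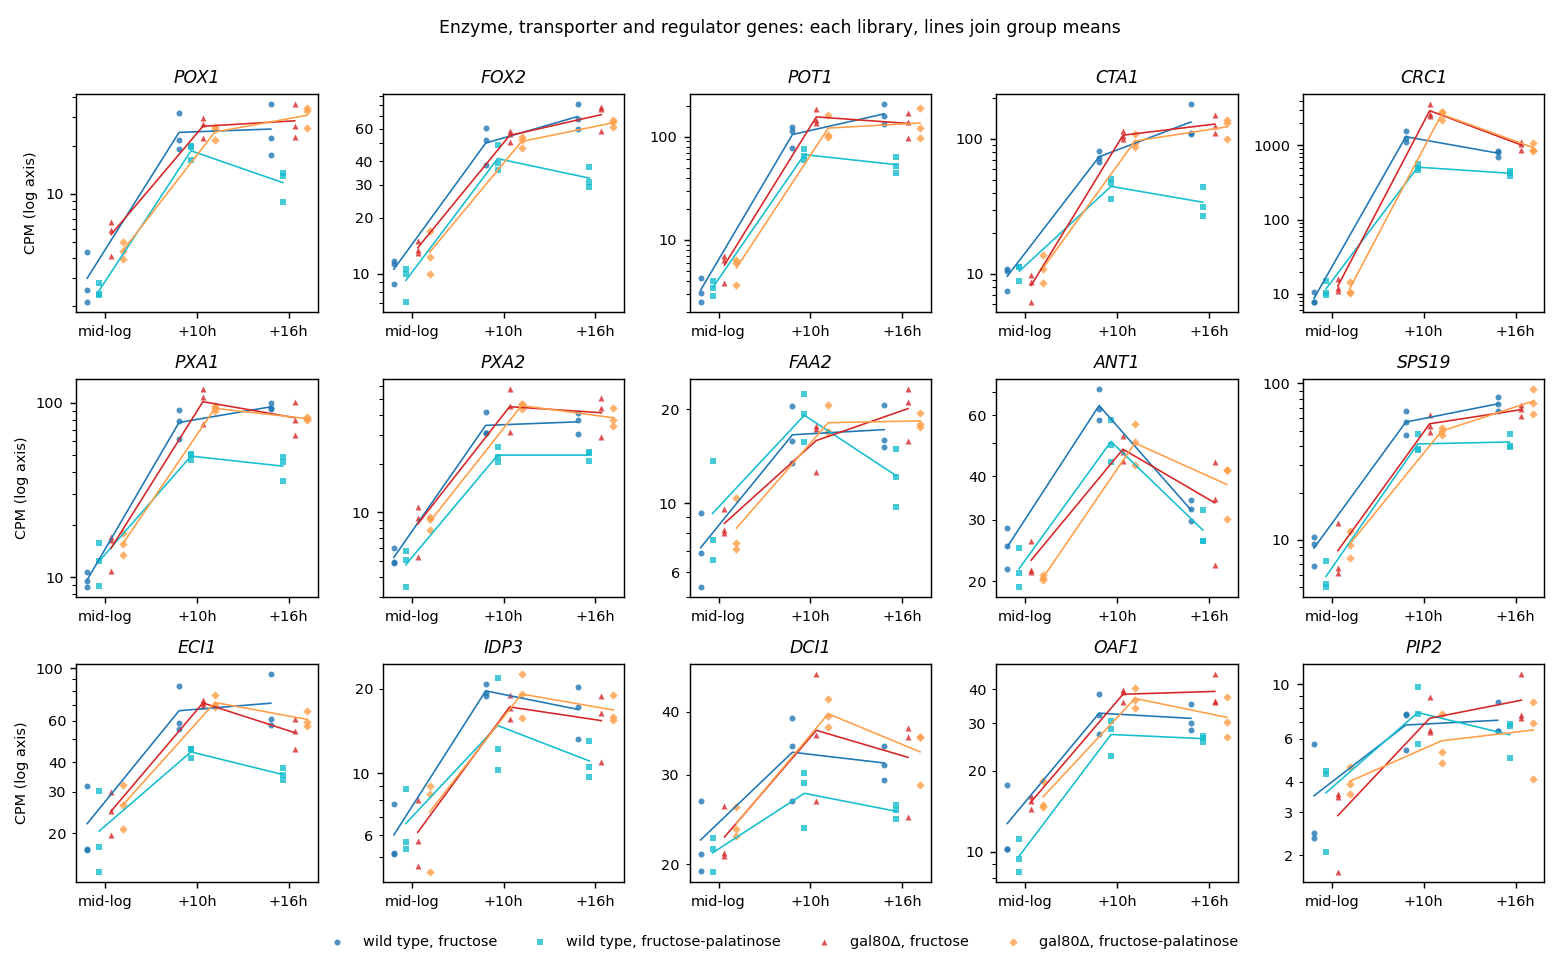
CPM of the 13 enzyme and transporter genes and the 2 regulator genes in each of the 36 libraries (y axis, log scale) at mid-log, +10h and +16h (x axis). Points are libraries, colours and shapes the 4 combinations of strain and medium, and lines join the means of 3 libraries; *CRC1* goes from between 7.66 and 15.7 CPM at mid-log to between 474 and 3657 CPM at +10h, and the wild-type in fructose-palatinose lies lowest at +16h for *CTA1*, *POT1* and *POX1*.

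Of the factors that bind the oleate response element, *OAF1* rose in all 4 comparisons, by a log2 fold change of 0.91 to 1.23. In wild-type cells in fructose it was at 17.8, 10.3 and 10.2 CPM at mid-log and at 38.5, 27.3 and 32.1 CPM at +10h, without overlap. *PIP2*, the partner of Oaf1, was the lower of the pair, at 5.69, 2.35 and 2.48 CPM and then at 7.56, 5.37 and 7.53 CPM. It was called in the wild-type in fructose-palatinose (0.80 ± 0.34, adjusted p = 0.046) and in *gal80Δ* in fructose (1.06 ± 0.34, adjusted p = 0.0087). In the first of these every pair of libraries with the same letter deviated together, and with the replicate letter as a block its adjusted p in edgeR was 0.050 and it was no longer called.

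Among the *PEX* genes, those of import receptors were called in most comparisons and those of the docking complex in few. Of the 4 genes of import receptors and their helpers, 3 rose in all 4 comparisons and the fourth, *PEX7*, in 2. *PEX18* and *PEX21* encode helpers of Pex7 in importing enzymes with an N-terminal signal, the thiolase Pot1 among them. *PEX18* was close to the floor at mid-log in wild-type cells in fructose, at 0, 0.618 and 0.723 CPM, and was at 20.7, 11.8 and 17.5 CPM at +10h. Its log2 fold changes of 3.59 to 4.75 are not sharply set, since a fit with so few counts at mid-log depends on the prior count. *PEX21* was at 85.0, 87.3 and 103 CPM and then at 271, 448 and 296 CPM. This was a log2 fold change of 1.51 ± 0.16 (adjusted p = 2.0e-09). *PEX21* thus stayed the more abundant of the pair. *PEX5*, the receptor of most matrix proteins, rose by 0.59 to 0.98 over the 4 comparisons.

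Of the 4 genes that dock these receptors at the membrane or, like *PEX8*, bind the docking complex, *PEX13* rose in 1 comparison (0.58 ± 0.16, wild-type in fructose), and *PEX14*, *PEX17* and *PEX8* were called in none, with log2 fold changes between -0.38 and 0.49. Of the RING ligases, which mark receptors for release, *PEX10* rose in all 4 comparisons and *PEX2* in 3. *PEX2* was widely spread, at 262, 475 and 200 CPM at +10h in wild-type cells in fructose against 91.8, 69.8 and 136 CPM at mid-log. Its log2 fold change there was 1.27 ± 0.33, without overlap of the libraries. Among the genes for pulling receptors back out, *PEX6* rose in all 4 comparisons (0.54 to 0.89), and *PEX4*, *PEX15* and *PEX22* each in 3. Of the pair that inserts membrane proteins, *PEX3* rose in 3 comparisons, and *PEX19*, its partner, was called in none.

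The 9 genes that set the size and number of peroxisomes split. *PEX28*, *PEX29*, *PEX30* and *PEX34* rose in all 4 comparisons, *PEX29* by 1.16 to 1.57, *PEX27* rose in 3 and *PEX32* in 2, and *PEX31* was called in none under either scaling. *PEX25* went the other way, from 108, 122 and 100 CPM to 84.6, 85.7 and 93.9 CPM in wild-type cells in fructose, a log2 fold change of -0.68 ± 0.12 (adjusted p = 1.5e-05). It fell in 3 of the 4 comparisons, in each of which the call was lost with library size alone (-0.32, -0.40 and -0.27). *PEX11*, the gene best known for raising peroxisome number, was at 96.7, 97.2 and 106 CPM and then at 136, 183 and 134 CPM. Although its CPM did not overlap, its log2 fold change with TMM scaling was 0.23 ± 0.17 and was not called, and with library size alone it was 0.60 and was called. TMM scaling and library size differ here because, over all genes, the median change in the 4 comparisons was 0.26 to 0.36 higher (log2) with library size alone. *PEX8*, *PEX17* and *PEX19* were likewise each called in 1 comparison with library size alone, at 0.76, 0.60 and 0.90.

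Some counted intervals overlap a neighbour, and the strand setting of the counting is not given in the sources used here. *PEX18* overlaps *TDA11* on the opposite strand over 1002 bp, *PEX29* overlaps *SNM1* over 1328 bp and *PEX30* overlaps *CWC24* over 1755 bp. *PEX6* overlaps *MDJ2* on its own strand over 1862 bp, and *PEX22* overlaps *ACS1*, at up to 776 CPM, over 83 bp. Reads of these genes and of their partners may not be told apart.

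**Figure D2:**
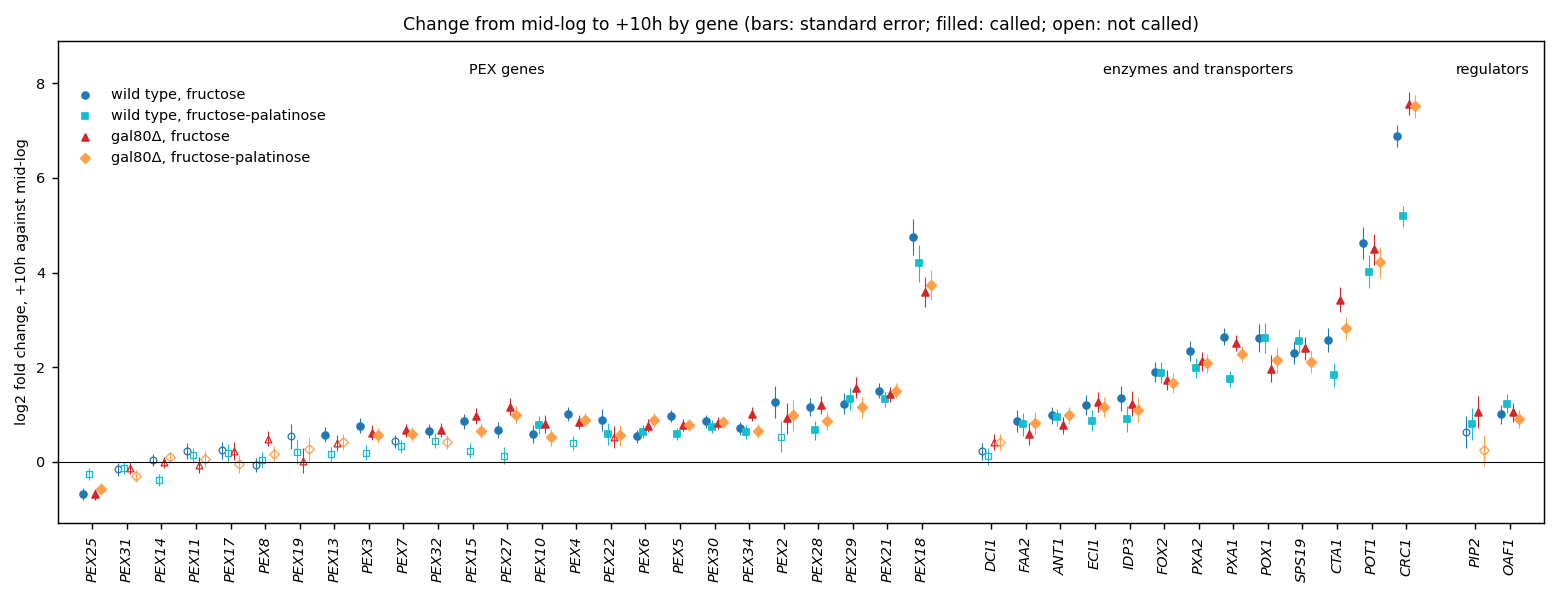
Log2 fold change from mid-log to +10h (y axis) of 40 of the 42 genes (x axis), grouped as *PEX* genes, enzymes and transporters, and regulators, in the 4 combinations of strain and medium. Bars are standard errors and filled points were called; most enzyme genes lie above most *PEX* genes, *CRC1* and *POT1* are highest among the enzymes, and *PEX25* lies below 0.

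Across the *PEX* genes, 9 rose in all 4 comparisons, 11 in 1 to 3, 1 fell and 6 were called in none. Oleate response elements were found among the genes that rose in every comparison and among those called in none. Of the 6 *PEX* genes with a match, 2 rose in all 4 comparisons and 2 were called in none, and of the 21 without, 7 rose in all 4 and 4 were called in none. Among the enzyme genes, 11 of the 12 with a match and *PXA1* without one rose in all 4.

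The balance between the classes changed accordingly. At mid-log, the 27 *PEX* genes summed to between 1193 and 1302 CPM, as means of the 4 groups, and the 13 enzyme and transporter genes to between 139 and 166 CPM. The enzymes therefore had 0.117 to 0.128 of the *PEX* total. At +10h, the enzymes summed to 1933 ± 264 CPM (SD, n = 3) in wild-type cells in fructose and to 951 ± 44.2 CPM in fructose-palatinose. In *gal80Δ* they summed to 3681 ± 637 and 3312 ± 391 CPM, so that each *gal80Δ* library exceeded each wild-type library in the same medium. The *PEX* total at +10h differed less between the groups. It was 2222, 2837 and 2206 CPM in libraries A, B and C of the wild-type in fructose, with a mean of 2422 CPM and of 2214 CPM without B, the library that stood apart. In fructose-palatinose the mean was 1946 CPM in the wild-type, and in *gal80Δ* the means were 2345 CPM without and 2395 CPM with palatinose. In fructose and fructose-palatinose, the enzyme total was 0.815 and 0.489 of the *PEX* total in the wild-type and 1.57 and 1.39 of it in *gal80Δ*. Without library B, the 0.815 of the wild-type in fructose was 0.916. These sums are scaled by library total. With TMM scaling the group means of the *PEX* total were 1396 to 1437 at mid-log and 1910 to 2197 at +10h, a smaller rise. Those of the enzyme total were then 164 to 184 and 933 to 3424.

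*CRC1* made up much of the enzyme total after mid-log. It held between 5.36% and 11.5% of the enzyme and transporter counts in the libraries at mid-log, 51.1% to 82.9% of them at +10h and 43.4% to 63.6% at +16h. Without it, the enzymes at +10h had 0.259 and 0.226 of the *PEX* total in the wild-type and 0.313 and 0.284 in *gal80Δ*. These ratios are still above those at mid-log without it, 0.107 to 0.119.

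**Figure D3:**
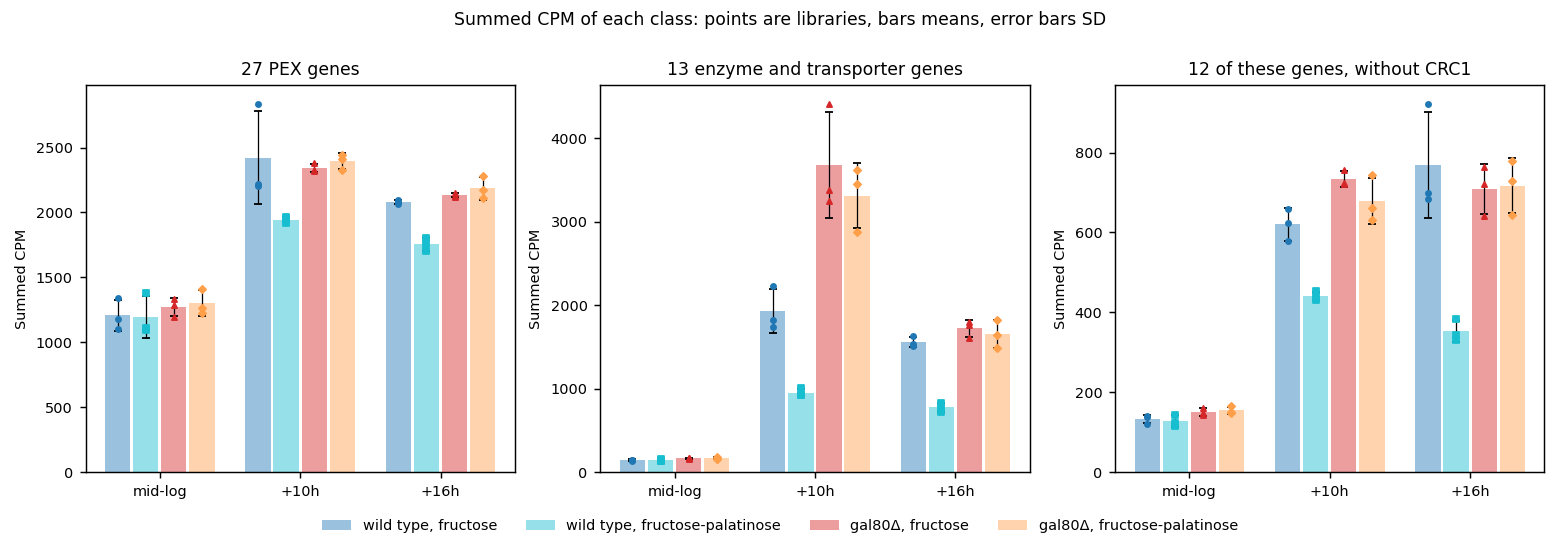
Summed CPM (y axes, from 0) of the 27 *PEX* genes, of the 13 enzyme and transporter genes and of the latter without *CRC1*, by time point (x axis) and by strain and medium (colours). CPM is scaled by library total, without TMM. Points are libraries, bars means and error bars SD (n = 3); the enzyme sum reaches 3681 CPM in *gal80Δ* in fructose at +10h, and the wild-type in fructose-palatinose is lowest in all 3 panels at +10h and +16h.

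From +10h to +16h, in comparisons that share their +10h libraries with those above, few of these genes were called. In wild-type cells in fructose, 3 *PEX* genes fell, 1 enzyme gene rose and 2 fell, where 5.71% of all genes rose and 5.4% fell (4.29% and 8.05% with library size alone). *CTA1* rose further, from 72.2, 67.6 and 81.2 CPM to 108, 110 and 182 CPM (0.93 ± 0.22, adjusted p = 0.0043). *ANT1* fell, from 62.4, 71.5 and 57.9 CPM to 29.7, 34.2 and 32.2 CPM (-0.91 ± 0.18), and *CRC1* fell from 1576, 1117 and 1245 CPM to 836, 826 and 706 CPM (-0.66 ± 0.18). The *PEX* genes that fell were *PEX2* (-1.19 ± 0.33), *PEX3* (-0.70 ± 0.16) and *PEX5* (-0.51 ± 0.13). The count of 6 dropped to 2 without replicate A, to 2 without replicate B and to 2 with only the libraries compared. Without library B of the +10h group alone it was 3, and the calls lost were those of *PEX2* (-0.82), *PEX3* (-0.50) and *PEX5* (-0.44). Over all genes the calls dropped too, from 313 up and 296 down of 5479 to 206 and 160 of 5487.

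In the other cultures still fewer were called. *ANT1* was the only one of the 42 called in wild-type cells in fructose-palatinose (-0.83 ± 0.18, adjusted p = 0.0099), where 1.04% of all genes rose and 0.548% fell, and it was called neither without replicate A nor without replicate B. In *gal80Δ*, *CRC1* fell in both media, to 1034, 882 and 1123 CPM in fructose and to 861, 1096 and 844 CPM in fructose-palatinose, with log2 fold changes of -1.57 ± 0.18 in fructose and -1.48 ± 0.18 in fructose-palatinose. *PEX11* was called higher in fructose (0.51 ± 0.17, adjusted p = 0.041), where 5.11% of all genes rose and 4.16% fell. *SPS19* was called higher in fructose-palatinose (0.66 ± 0.22, adjusted p = 0.047), where 5.15% rose and 3.45% fell. Both calls were close to the threshold and were lost in edgeR with a block, at adjusted p = 0.054 with the replicate letter and 0.099 with the culture for *PEX11*, and at 0.062 and 0.093 for *SPS19*. *PEX11* also lost its call without replicate B or C and with only the libraries compared, and *SPS19* without replicate A or B. After these changes the enzyme total at +16h was 0.749 of the *PEX* total in fructose and 0.441 in fructose-palatinose in the wild-type, and 0.807 and 0.755 in *gal80Δ*. Each of these ratios was below that at +10h. Without *CRC1*, the mean ratio went from 0.259 at +10h to 0.369 at +16h in the wild-type in fructose. In *gal80Δ* it went from 0.313 to 0.332 in fructose and from 0.284 to 0.328 in fructose-palatinose, with overlapping libraries. In the wild-type in fructose-palatinose it fell, from 0.226 to 0.20.

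A second comparison asked what palatinose did within a strain. At mid-log none of the 42 genes was called in the wild-type (edgeR, and none with DESeq2), 2 had an unadjusted p-value below 0.05, and 0.128% of all genes rose and 0.0% fell. At +10h, 4 *PEX* genes and 2 enzyme genes were lower in fructose-palatinose than in fructose and none was higher, where 5.38% of all genes were higher and 6.19% lower (3.6% and 11.1% with library size alone). *CRC1* had the largest difference, with 1576, 1117 and 1245 CPM in fructose against 565, 493 and 474 CPM in fructose-palatinose (-1.25 ± 0.18, adjusted p = 1.8e-05). The groups were well apart. *PXA1* was lower too (-0.53 ± 0.16), as were *PEX3* (-0.84 ± 0.16), *PEX27* (-0.64 ± 0.17), *PEX28* (-0.62 ± 0.18) and *PEX15* (-0.57 ± 0.16). This count of 6 was 4 without replicate A, 1 without replicate B and 3 without replicate C, and it was 1 with only the libraries compared and 11 with library size alone. Without library B of the fructose group alone it was 4, and *PEX15* (-0.46) and *PEX27* (-0.52) were no longer called. Calls over all genes dropped as well, from 295 higher and 339 lower of 5479 to 169 and 183 of 5487. The OD at harvest was 1.5 to 1.55 in fructose and 1.65 to 1.8 in fructose-palatinose, and its part was not tested.

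At +16h the difference lay in the enzymes. In the wild-type, 9 of the 13 enzyme and transporter genes were lower in fructose-palatinose and none was higher, with a median log2 fold change of -0.85, and 1 of the 27 *PEX* genes was lower, with a median of -0.20. Of all genes 2.56% were higher and 3.63% lower (1.84% and 4.18% with library size alone), with a median of -0.00. *CTA1* was at 108, 110 and 182 CPM in fructose and at 31.3, 43.8 and 26.7 CPM in fructose-palatinose, without overlap (-1.93 ± 0.23, adjusted p = 5.6e-07). *POT1* was at 158, 133 and 208 CPM against 52.4, 63.6 and 44.5 CPM (-1.59 ± 0.28). *POX1* was at 17.6, 22.2 and 36.3 CPM against 13.4, 8.86 and 13 CPM (-1.06 ± 0.26), and *FOX2* at 59.9, 67.2 and 81.5 CPM against 29.3, 37.3 and 30.9 CPM (-1.05 ± 0.20). All 3 core enzymes and the catalase were therefore lower with palatinose, each without overlap of the libraries. In fructose, library C was the highest for each of these genes. Its chi-square per degree of freedom was 46.3 against A and 52.1 against B, where A and B differed by 14.7. The calls of *CTA1* and *POT1* held under every alternative fit, and those of *POX1* and *FOX2* were each lost under at least 1. The others called were *PXA1* (-1.08 ± 0.16), *ECI1* (-0.96 ± 0.21), *CRC1* (-0.85 ± 0.18), *SPS19* (-0.76 ± 0.22) and *PXA2* (-0.63 ± 0.19). Among these, only the call of *PXA1* held under every alternative fit.

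*ANT1*, *DCI1*, *FAA2* and *IDP3* were not called at +16h, with log2 fold changes of -0.14, -0.27, -0.44 and -0.56. The 1 *PEX* gene was *PEX18*, at 25.4, 19.6 and 26.9 CPM in fructose and 8.85, 11.8 and 8.02 CPM in fructose-palatinose (-1.29 ± 0.25, adjusted p = 0.0010). Its call was lost under at least 1 alternative fit. Neither regulator was called, *OAF1* with -0.20 ± 0.19 and *PIP2* with -0.14 ± 0.31. The count of 10 was 5 without replicate A and 3 without replicate C. The culture density moved with this comparison. At harvest at +16h the OD was 1.85 to 2.1 in wild-type cultures in fructose and 2.60 to 2.80 in fructose-palatinose, and its part in the result was not tested.

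In *gal80Δ* none of the 42 genes was called for palatinose at any of the 3 time points, by edgeR or by DESeq2, and none had an unadjusted p-value below 0.05. Of all genes, 0.128% rose at each time point and between 0.0% and 0.0183% fell. *CTA1* at +16h was at 151, 125 and 110 CPM in fructose and at 137, 131 and 99.8 CPM in fructose-palatinose, with overlapping libraries (-0.06 ± 0.22). *POT1* was at 138, 168 and 96.8 CPM against 188, 121 and 97.1 CPM (0.02 ± 0.27). The OD of these cultures was 1.80 to 1.85 in fructose and 1.90 to 2.1 in fructose-palatinose.

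**Figure D4:**
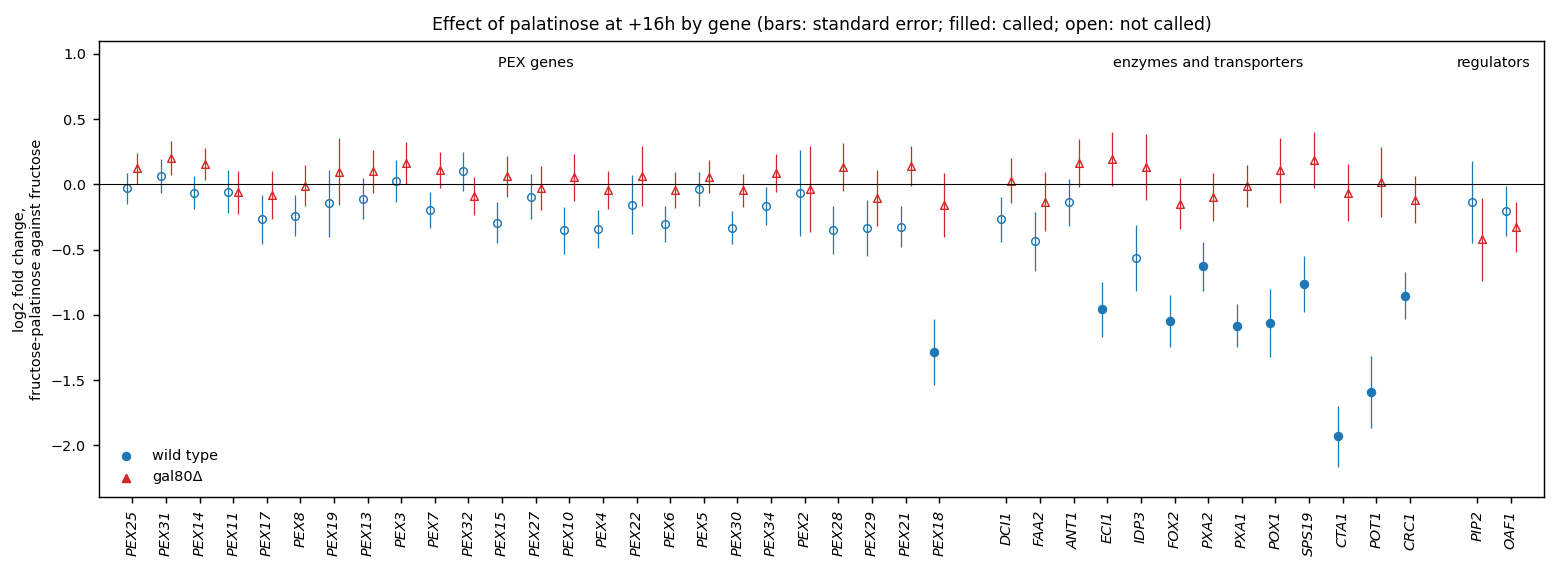
Log2 fold change of fructose-palatinose against fructose at +16h (y axis) for 40 of the 42 genes (x axis), in the wild-type (blue circles) and in *gal80Δ* (red triangles). Bars are standard errors and filled points were called; in the wild-type 9 enzyme genes and *PEX18* are filled and lie between -0.63 and -1.93, and in *gal80Δ* no point is filled.

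Whether palatinose acted differently in *gal80Δ* was tested by an interaction term, on the same libraries as the palatinose comparisons of each strain. At mid-log none of the 42 was called (0.0% of all genes in either direction), with 1 at an unadjusted p-value below 0.05 and none called by DESeq2. At +10h, *CRC1* was called (1.05 ± 0.26, adjusted p = 0.039), where 0.256% of all genes had a positive and 0.548% a negative difference (0.438% and 0.383% with library size alone). At +16h, 0.748% of all genes had a positive and 0.785% a negative difference. There, 4 enzyme genes were called, all with a positive difference (*gal80Δ* minus wild-type). They were *CTA1* (1.87 ± 0.32, adjusted p = 0.00042), *POT1* (1.61 ± 0.38, adjusted p = 0.020), *ECI1* (1.15 ± 0.29, adjusted p = 0.036) and *PXA1* (1.07 ± 0.23, adjusted p = 0.0060). All 13 enzyme genes had a positive value, with a median of 0.90, against a median of 0.23 for the *PEX* genes and 0.01 for all genes. The count of 4 was 2 without replicate A, 2 without replicate B and 0 without replicate C, and the call of *CRC1* at +10h was lost without any 1 of the replicates. Without library B of the wild-type in fructose alone, *CRC1* stayed called (1.21 ± 0.25, edgeR adjusted p = 0.014). There, 13 of 5487 genes had a positive and 21 a negative difference.

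The third comparison set *gal80Δ* against the wild-type. In fructose there was 1 call. At mid-log none of the 42 was called by edgeR or by DESeq2, with 7 at an unadjusted p-value below 0.05, where 3.83% of all genes were higher in *gal80Δ* and 3.32% lower (4.22% and 1.92% with library size alone). At +16h none was called by either tool, with 4 at an unadjusted p-value below 0.05, where 2.1% were higher and 3.87% lower (2.37% and 2.23% with library size alone). At +10h *CRC1* was higher in *gal80Δ* (1.2 ± 0.18, adjusted p = 4.9e-05), where 3.43% of all genes were higher and 4.07% lower. The call was lost with only the libraries compared, and the count was 2 without replicate A. Without library B of the wild-type alone, *CRC1* stayed called (1.06 ± 0.20, edgeR adjusted p = 0.00083). There, 106 of 5487 genes were higher and 136 lower.

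In fructose-palatinose there were 2, 5 and 11 calls at the 3 time points. At mid-log *PXA2* (0.79 ± 0.23, adjusted p = 0.021) and *OAF1* (0.64 ± 0.21, adjusted p = 0.045) were higher in *gal80Δ*, where 3.96% of all genes were higher and 4.05% lower (5.55% and 1.95% with library size alone), and neither was called once any replicate was left out. At +10h, 4 enzyme genes and *PEX27* (0.60 ± 0.17) were higher and none was lower, where 6.72% of all genes were higher and 7.54% lower (10.6% and 5.04% with library size alone). *CRC1* was highest (2.25 ± 0.19, adjusted p = 2.3e-10), followed by *CTA1* (0.98 ± 0.23), *PXA2* (0.89 ± 0.19) and *PXA1* (0.78 ± 0.16). This count of 5 became 11 with library size alone and 8 with only the libraries compared.

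At +16h in fructose-palatinose, 9 enzyme genes and 2 *PEX* genes were higher in *gal80Δ* and none was lower, where 5.58% of all genes were higher and 7.26% lower (9.14% and 4.45% with library size alone). The medians were 0.76 for the enzymes, 0.28 for the *PEX* genes and 0.02 for all genes. *CTA1* was at 137, 131 and 99.8 CPM in *gal80Δ* against 31.3, 43.8 and 26.7 CPM in the wild-type (1.75 ± 0.23, adjusted p = 1.8e-06). *POX1* was at 32.7, 34.1 and 25.8 CPM against 13.4, 8.86 and 13 CPM (1.28 ± 0.26, adjusted p = 0.00079). Both were without overlap. The other enzyme genes called lay between 0.65 (*PXA2*) and 1.24 (*POT1*), and the *PEX* genes were *PEX18* (0.88 ± 0.25) and *PEX30* (0.51 ± 0.13). The count of 11 was 5 without replicate A. This comparison shares its wild-type libraries with that of palatinose at +16h, so the 2 are not separate observations of these libraries. The OD was lower in *gal80Δ*, at 1.90 to 2.1 against 2.60 to 2.80, and its part was not tested.

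Other genes of the pathway were taken from a list of 26, with enzymes for activating fatty acids, enzymes of the glyoxylate cycle, carnitine acetyltransferases and genes for the inheritance and division of peroxisomes. From mid-log to +10h, 18 of the 26 rose in each of the 4 comparisons and 2 or 3 fell, with medians of 0.86 to 1.07, where 24.5% to 29.1% of all genes rose and 21.2% to 26.0% fell. The largest rises were those of *MLS1*, the malate synthase of the glyoxylate cycle (7.69 ± 0.31 in wild-type cells in fructose), and of the carnitine acetyltransferases *YAT1* (6.10), *CAT2* (5.73) and *YAT2* (4.64), whose products make the acetylcarnitine that Crc1 carries. For palatinose in the wild-type, 6 of the 26 were lower at +10h and 5 at +16h and none was higher, where 6.19% and 3.63% of all genes were lower and 5.38% and 2.56% higher. At +10h the largest differences were those of *CIT2*, a peroxisomal citrate synthase (-1.17), *YAT1* (-1.12), *CAT2* (-1.09) and *YAT2* (-1.0). In *gal80Δ* none of the 26 was called for palatinose at any time point, by edgeR, with 1, 0 and 0 at an unadjusted p-value below 0.05, where 0.128% of all genes were higher and 0.0% to 0.0183% lower. Between the strains in fructose-palatinose, 9 of the 26 were higher in *gal80Δ* at +10h and 9 at +16h, and 1 was lower at each, where 6.72% and 5.58% of all genes were higher and 7.54% and 7.26% lower. At mid-log 3 were higher (3.96% of all genes higher, 4.05% lower). In fructose, 5 were higher at mid-log (3.83% and 3.32%). At +10h 4 were higher and 2 lower (3.43% and 4.07%), and at +16h 1 was higher (2.1% and 3.87%). The interaction term called 2 of the 26 at +10h, both positive (0.256% of all genes positive, 0.548% negative), and none at mid-log or +16h.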

How the data were processed

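RNA was taken from 36 culture samples, 3 for each combination of strain, medium and time point, and 3′ end libraries (QuantSeq REV) were sequenced. Per the labels, the authors trimmed reads with cutadapt 1.18, aligned them to the R64 build with HISAT2 2.1.0 and counted them with featureCounts of Subread 2.0.0. They counted over the longest transcript of each gene, with a set 3′ UTR length where none was known. The strand setting is not given in the sources used here. The authors deposited these counts per gene, not normalized, and a second table with the OD (optical density) of each culture at harvest. 1 further column of values per library (CPM) was not used.

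From the counts, CPM was computed on the library total, and edgeR 4.0.16 in R 4.3.3 (TMM scaling, filterByExpr, 5479 of 5697 genes kept) fitted all 12 groups in a single quasi-likelihood model, tested on simulated data first. P-values were adjusted over all genes by Benjamini-Hochberg. Alternatives were DESeq2 1.42.0, library size alone, no filter, at least 10 counts in every library, only the groups compared, the replicate letter as a block, each culture as a block and leaving out each replicate. The enzyme to *PEX* ratio without *CRC1*, and the fit without library B of the wild-type in fructose at +10h, were chosen after seeing the data. The 36 pairs of replicates differed by more than sampling noise. The SE of a fold change and the SD of a sum both include the spread between replicates.

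Letters A, B and C were checked for pairing by the correlation of deviations from group means. Over 60 same-letter pairs it lay between -0.59 and 0.66 (median -0.00), and every pair was above 0.1 in 3 of the 20 comparisons of 2 groups. The study calls the replicates biological and does not say whether a culture was harvested at all 3 times, so p-values measure the spread between these samples.

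The 42 members, their classes and the list of 26 further genes were chosen with earlier results of these data known. The 15 listed genes were each named with values, and 2 *PEX* genes, which enter the counts and sums, are not reported singly here. *PEX* genes were named by role or among the 4 largest calls of a comparison, and at most 4 called genes of the further list were named per kind of comparison. Oleate response elements were searched in the 500 bp upstream of 6008 nuclear genes of the RefSeq R64 sequence. The intervals of the counted genes were checked against this reference.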

Additional observations from a re-analysis of the deposited data

Results flagged for a closer look

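The effect of palatinose differed between the strains in 5 tests, each by an interaction term in edgeR. At +10h it was *CRC1*, with a log2 difference (*gal80Δ* minus wild-type) of 1.05. At +16h they were *CTA1* with 1.87, *POT1* with 1.61, *ECI1* with 1.15 and *PXA1* with 1.07. All 5 were positive with each replicate left out, and their adjusted p-values then ranged from 0.125 to 0.413 for *CRC1*, from 0.0018 to 0.060 for *CTA1*, from 0.029 to 0.472 for *POT1*, from 0.132 to 0.334 for *ECI1* and from 0.017 to 0.287 for *PXA1*.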

How the results depend on the processing

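Between mid-log and +10h the count of members called stayed within 1.5 times under every alternative run, at 28 to 37 (31 as reported) in the wild-type in fructose, 21 to 30 (25) in fructose-palatinose, 28 to 36 (33) in *gal80Δ* in fructose and 26 to 34 (30) in fructose-palatinose. Of 170 called changes of single members, 102 held under every alternative that tested them, 68 were lost under at least 1 and none reversed. The filter of at least 10 counts in every library tested 164 of them, since it removed *PEX18*. Losses came mostly with 1 replicate left out (41 without A, 33 without B, 38 without C) or with only the groups compared (19).

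Later comparisons had fewer calls and depended more on the setting. From +10h to +16h, the 6 calls of the wild-type in fructose became 2 with only the groups compared and 2 to 4 with a replicate left out (3 without library B at +10h alone), and the 1 call in fructose-palatinose became 0 to 1. The 2 calls of *gal80Δ* in fructose became 1 with the replicate block, 1 with only the groups compared and 4 with DESeq2, and its 2 in fructose-palatinose became 1 with the replicate block on the letter or on the culture and 1 to 2 with a replicate left out.

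For palatinose in the wild-type, the 6 calls at +10h became 11 with library size alone, 1 with only the groups compared and 1 to 4 with a replicate left out, and the 10 calls at +16h became 3 to 7 with a replicate left out. Between strains in fructose at +10h, 1 call became 0 with only the groups compared and 1 to 2 with a replicate left out. In fructose-palatinose, the 2 calls at mid-log became 0 with only the groups compared and 0 with any replicate left out, the 5 at +10h became 11 with library size alone, 8 with only the groups compared and 4 to 5 with a replicate left out, and the 11 at +16h became 5 to 9. The interaction had 1 call at +10h, then 0 with only the groups compared or any replicate left out, and 4 at +16h, then 0 to 2. A setting with fewer libraries tests with less replication, and other causes were not tested.

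The replicate block moved *PIP2* beyond the threshold in the wild-type in fructose-palatinose from mid-log to +10h (24 calls against 25). It changed no other call in the 3 comparisons where every same-letter pair correlated above 0.1. The sources used here do not state that these libraries were paired. Without *CRC1*, chosen after seeing the data, the enzyme to *PEX* ratio was 0.259 and 0.369 at +10h and +16h in the wild-type in fructose, and 0.107, 0.226 and 0.20 at mid-log, +10h and +16h in fructose-palatinose. In *gal80Δ* it was 0.118, 0.313 and 0.332 in fructose and 0.119, 0.284 and 0.328 in fructose-palatinose. Depth limited *PEX18* at mid-log, where it had 0 to 1.46 CPM in a library.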
